A study of Mus musculus with 6 samples.

Results

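Integrin genes and genes of focal adhesion proteins were compared between mouse embryonic fibroblasts (MEFs) that carry Atxn3 and MEFs that lack it. The genes were taken by symbol: every gene whose symbol begins with Itga or Itgb followed by a letter, a digit or nothing, apart from the Itgb1bp genes, and 16 named genes of focal adhesions. The array measured 42 of them, among 18193 genes in all, each read from the brightest probe set that names that gene alone. They comprised 25 integrin subunits (16 alpha and 9 beta), 15 focal adhesion proteins, and 2 genes that match by their letters but encode no subunit, the centromere protein gene Itgb3bp and the integrin beta-like gene Itgbl1. Itga11, Itgad and Ptk2 (focal adhesion kinase) were not analysed here, because no probe set names any of these genes alone.

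Integrins are receptors made of 1 alpha and 1 beta subunit, and through them a fibroblast holds on to collagen, laminin and fibronectin outside the cell. Talins and kindlins bind the short tail of the beta subunit and switch the receptor to its binding state. Vinculin, alpha-actinin, tensins and the complex of Ilk, Pinch and parvin then tie it to actin filaments, while paxillin, p130Cas and zyxin recruit further proteins as the adhesion grows under tension.

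The study hybridised RNA of Atxn3-WT and Atxn3-KO MEFs to Affymetrix mouse genome arrays, with 3 arrays per genotype, to ask what loss of Atxn3, a deubiquitinating enzyme, does to gene expression. The knockout MEFs came from Atxn3 knockout mice and the control MEFs from wild-type mice, and both were grown untreated in DMEM with fetal bovine serum. The sources used here do not give the strain or the age of the embryos, and they call the 3 replicates of a genotype biological without saying whether these were separate embryos or cultures of 1 line. The p-values measure the spread between these replicates alone, which may be technical if they were cultures of 1 line, and a property of the line cannot be told apart from the genotype.

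All values are on the log2 scale of the deposited RMA table, and a difference is Atxn3-KO minus Atxn3-WT. Array medians lay between 5.97 and 6.002 and 25th percentiles between 4.36 and 4.39. Atxn3 itself read 6.53, 6.81 and 6.66 in the Atxn3-WT arrays and 3.60, 3.43 and 3.73 in the Atxn3-KO arrays, so each label matched its genotype. Of 11 fibroblast markers, 10 lay above the median of every array in both genotypes, while 1 of 10 leukocyte and macrophage markers (Ptprc), 1 of 6 epithelial markers (Cdh1) and 4 of 6 endothelial markers were dimmer than each array's 25th percentile in both. Above the median of every array in both genotypes were the leukocyte and macrophage markers Cd14, Csf1r and Lyz2, the epithelial marker Epcam and the endothelial marker Kdr. The fibroblast markers also differed between the genotypes. Of the 11, 3 were higher and 5 lower (limma adjusted p under 0.05), against 17.1% and 14.7% of all genes. Their differences ran from -0.40 (Fap) to 1.11 (Prrx1).

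Loss of Atxn3 went with a higher level of 8 of the 42 genes and a lower level of 6 (limma, Benjamini-Hochberg adjusted p under 0.05 over all 45037 probe sets). That was 33.3% of the members, against 31.8% of all genes on the array (17.1% higher and 14.7% lower), so the share of changed members was close to the background. The differences were modest and ran both ways, from -0.53 (Tns3, tensin 3) to 0.76 (Itga1, the alpha 1 subunit). None of the 42 passed the stricter thresholds of the study's methods in limma (adjusted p of at most 0.001 and at least a 2-fold change), which 1.93% of all genes passed. The p threshold alone was passed by 5 members, against 1536 of all 18193 genes. An unadjusted p under 0.05 was reached by 11 higher and 10 lower members, against 4094 higher and 3654 lower of all genes. The 3 Atxn3-KO values lay wholly to one side of the 3 Atxn3-WT values for 24 of the 42 members, against 49.2% of all genes. The median difference was -0.03 over the members and 0.0021 over all genes. These are RNA levels of whole cultures, in which fewer cells of a type and less RNA per cell cannot be told apart.

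**Figure D1:**
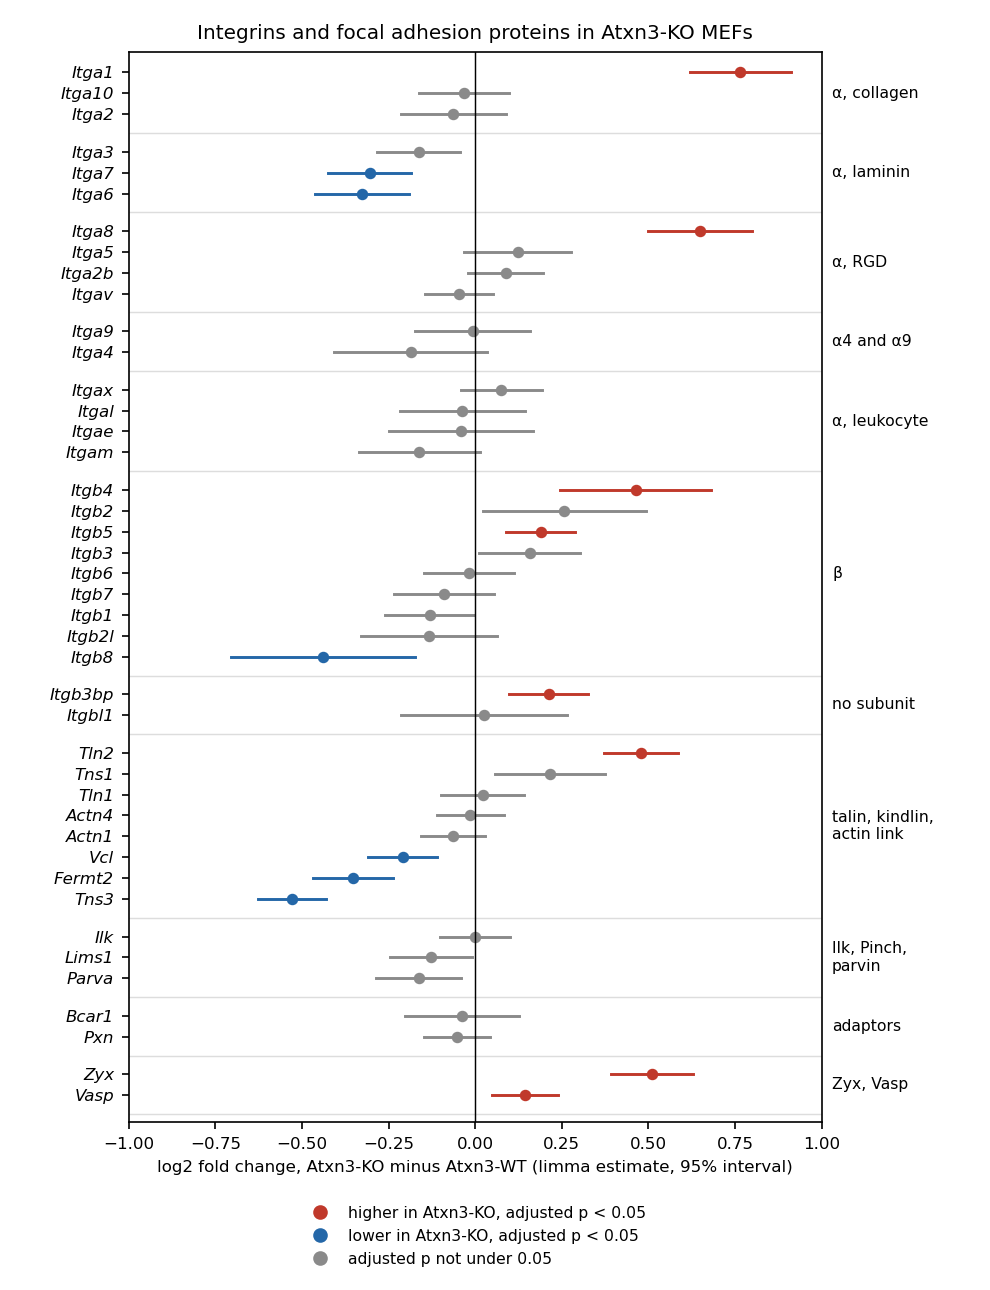
Difference between genotypes (Atxn3-KO minus Atxn3-WT, log2, horizontal axis) for each of the 42 genes, grouped by role, with 95% confidence intervals from limma; colours mark genes that passed an adjusted p of 0.05. Genes that passed lie on both sides of 0, from -0.53 for Tns3 to 0.76 for Itga1.

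Before their values, 3 stretches of DNA are shown, because CArG boxes, the sites of serum response factor, and the letters CATTCC, the core of TEAD sites, and TGANTCA, the core of AP-1 sites, are common in genes of the actin cytoskeleton. The 250 bases before each start listed in a RefSeq promoter table (GRCm38.p6) were searched on both strands. That table held 32 of the 42 members, among them 6 of the 8 higher and 4 of the 6 lower genes. A listed start is not always the outermost base of the gene, which has several transcripts: it lay 15 bases inside the RefSeq extent of Vcl, 245 bases inside that of Fermt2 and 317 bases inside that of Zyx. A CArG box stood before a listed start of 2 of the 4 lower genes (Vcl and Fermt2), none of the 6 higher genes, 1 of the 22 genes that did not pass (Itgb6) and 1.62% of all 27025 genes. TGANTCA stood before that of 1 of the 6 higher genes (Zyx), none of the 4 lower genes, 2 of the 22 others (Actn4 and Itgax) and 7.82% of all genes. CATTCC stood before that of 1 of the 4 lower genes (Vcl), none of the 6 higher genes, 3 of the 22 others (Actn4, Itga10 and Itgb1) and 14.4% of all genes. A match in letters says nothing of whether a factor binds there. The sequences of the 3 changed members with a match follow 5′ to 3′ along the gene, with the motifs in capitals. For Vcl the 235 searched bases that lie outside the gene are shown (plus strand, chr14:20929148-20929382). They hold a CArG box and, further to the right, GGAATG, which is CATTCC on the other strand. For Fermt2 (minus strand, chr14:45530250-45530279) and Zyx (plus strand, chr6:42349696-42349725) the 30 bases around the match are shown, a CArG box and TGANTCA, since both matches lie inside the gene's outermost ends. No 2 motifs overlapped in these sequences.
Vcl: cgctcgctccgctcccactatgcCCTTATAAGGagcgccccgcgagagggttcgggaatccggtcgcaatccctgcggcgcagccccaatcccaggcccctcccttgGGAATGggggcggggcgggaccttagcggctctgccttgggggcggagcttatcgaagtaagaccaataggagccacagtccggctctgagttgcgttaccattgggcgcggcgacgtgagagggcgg
Fermt2: tccttcatttCCATAAAAGGgcagcgctcc
Zyx: agtgcggacagTGAGTCAgttctccagcac

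Among the collagen-binding alpha subunits, Itga1 showed the largest difference of all members. Itga1 pairs with Itgb1 to form alpha 1 beta 1, a receptor for collagen IV and other collagens. It read 6.61, 6.64 and 6.52 in Atxn3-WT and 7.26, 7.35 and 7.45 in Atxn3-KO MEFs. The groups did not overlap, and Itga1 was 1.70-fold higher in Atxn3-KO MEFs (0.76 ± 0.062, SE of the difference, 3 arrays per genotype here and below, 95% confidence interval 0.62 to 0.91, limma adjusted p = 0.000159). A dimmer probe set of Itga1 differed by -0.02 (limma adjusted p = 0.880), so the rise was seen by 1 of its 2 probe sets. Itga2 (-0.06) and Itga10 (-0.03), the other collagen-binding subunits measured, did not pass the test.

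The laminin-binding alpha subunits were lower for 2 of 3 (66.7%, against 14.7% of all genes lower), in a group of only 3 genes. Itga6, which forms alpha 6 beta 1 and the hemidesmosome receptor alpha 6 beta 4, read 9.82, 9.73 and 9.82 in Atxn3-WT and 9.48, 9.54 and 9.36 in Atxn3-KO MEFs. Its groups did not overlap, and it was 1.25-fold lower (-0.33 ± 0.058, limma adjusted p = 0.00567). A dimmer probe set of Itga6 differed by -0.19 (limma adjusted p = 0.0610). Itga7, best known as the laminin receptor subunit of skeletal muscle, read 8.70, 8.64 and 8.78 against 8.37, 8.44 and 8.40, again without overlap. It was 1.24-fold lower (-0.30 ± 0.051, limma adjusted p = 0.00431). Itga3, the third laminin-binding subunit, read 9.64, 9.60 and 9.63 against 9.54, 9.39 and 9.45, a difference of -0.16 that missed the threshold (limma adjusted p = 0.0548). A dimmer probe set of Itga3 passed at -0.21 (limma adjusted p = 0.0242), and Itga3 itself passed when Atxn3-KO replicate 1 was left out (limma adjusted p = 0.0328).

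Of the subunits that read the RGD peptide of fibronectin, vitronectin and nephronectin, only Itga8 passed (1 of 4, or 25%, against 31.8% of all genes). Itga8 pairs with Itgb1 as the receptor for nephronectin and is known for its role in kidney development. It read 4.35, 4.45 and 4.39 in Atxn3-WT MEFs, at the 25th percentile of the arrays, and 5.08, 5.13 and 4.92 in Atxn3-KO MEFs. It was 1.57-fold higher without overlap (0.65 ± 0.064, 95% confidence interval 0.50 to 0.80, limma adjusted p = 0.000397), although its second, dimmer probe set lay below the 25th percentile in both genotypes and differed by 0.06. Itga5, the main fibronectin receptor subunit, read 10.05, 10.03 and 10.15 against 10.32, 10.15 and 10.13. These groups overlapped (0.12, 95% confidence interval -0.03 to 0.28, limma adjusted p = 0.231). Itgav, the partner of the beta 1, 3, 5, 6 and 8 subunits, read 12.60, 12.63 and 12.61 against 12.60, 12.55 and 12.55. Its difference of -0.05 had a 95% confidence interval of -0.14 to 0.05 (limma adjusted p = 0.476). Itga2b, the platelet subunit, differed by 0.09 (limma adjusted p = 0.220).

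Itga4 and Itga9, which bind Vcam1 and tenascin or spliced fibronectin, differed by -0.19 and -0.01 and did not pass. A dimmer probe set of Itga9 passed at 0.45 (limma adjusted p = 0.00801). A dimmer probe set of Itga4, under the 25th percentile in both genotypes, passed at -0.21 (limma adjusted p = 0.0174). The leukocyte subunits Itgal, Itgam, Itgax and Itgae lay between -0.16 and 0.08, and none passed, with Itgam under each array's 25th percentile in both genotypes. Itgb2, the beta partner of Itgal, Itgam and Itgax, differed by 0.26 (limma adjusted p = 0.107), with a mean below the 25th percentile in Atxn3-WT MEFs. Itgb2 passed only when Atxn3-WT replicate 2 was left out (limma adjusted p = 0.0047). None of 10 leukocyte and macrophage markers passed, and their mean level was 5.65 to 5.68 in the Atxn3-WT arrays and 5.69 to 5.73 in the Atxn3-KO arrays. Of 3 megakaryocyte markers, Ppbp was higher by 1.57, from an Atxn3-WT mean of 4.06 that lay below the 25th percentile. Pf4 (-0.05) and Gp9 (-0.09) did not pass, and none of the 3 lay above the median of every array in either genotype. The mean level of the 3 was 4.95 to 5.01 in the Atxn3-WT and 5.34 to 5.55 in the Atxn3-KO arrays. The part of these markers in the values of Itga2b or Itgb3 was not tested.

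Of the 9 beta subunits, Itgb4 and Itgb5 were higher and Itgb8 was lower (33.3%, near the 31.8% of all genes). Itgb1, the shared partner of most alpha subunits in fibroblasts, read 12.25, 12.13 and 12.12 in Atxn3-WT and 12.08, 12.05 and 11.98 in Atxn3-KO MEFs. Its groups did not overlap, but the difference of -0.13 did not pass (95% confidence interval -0.26 to -0.0036, limma adjusted p = 0.127), and of 6 Itgb1 probe sets only 1, below the 25th percentile in both genotypes, did (-0.54, limma adjusted p = 0.000264). Itgb4, the partner of Itga6 in hemidesmosomes, read 5.33, 5.63 and 5.34 against 5.81, 5.88 and 6.01. It was 1.38-fold higher without overlap (0.46 ± 0.093, limma adjusted p = 0.00940), whereas Itga6 was lower. Of 6 epithelial markers, Epcam was higher by 0.38 and no other passed, while Cdh1 was under each array's 25th percentile. Their mean level was 5.37 to 5.49 in the Atxn3-WT and 5.47 to 5.58 in the Atxn3-KO arrays, and their part in the Itgb4 difference was not tested.

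Itgb5, which with Itgav binds vitronectin, read 10.90, 10.95 and 10.97 in Atxn3-WT and 11.12, 11.13 and 11.15 in Atxn3-KO MEFs. The rise was small, 1.14-fold, but without overlap (0.19 ± 0.042, limma adjusted p = 0.0150), and all 4 probe sets of Itgb5 passed in the same direction, from 0.19 to 0.25. It missed the threshold without Atxn3-WT replicate 1 (limma adjusted p = 0.0507). Itgb8, which with Itgav binds and activates latent TGF-beta, read 4.61, 5.03 and 4.998 against 4.53, 4.45 and 4.34. Its Atxn3-KO mean of 4.44 lay near the 25th percentile of the arrays, and Atxn3-KO replicate 3 lay under its own (4.364). The groups did not overlap, but the lowest Atxn3-WT array lay only just above the highest Atxn3-KO array (-0.44 ± 0.113, 95% confidence interval -0.70 to -0.17, limma adjusted p = 0.0268). This call was lost when Atxn3-WT replicate 2 or 3 or Atxn3-KO replicate 2 or 3 was left out (limma adjusted p = 0.0814, 0.0842, 0.0670 and 0.0813 in that order). Itgb3, the other vitronectin partner of Itgav, differed by 0.16 (limma adjusted p = 0.110), and Itgb2l, Itgb6 and Itgb7 lay between -0.13 and -0.02 without passing.

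**Figure D2:**
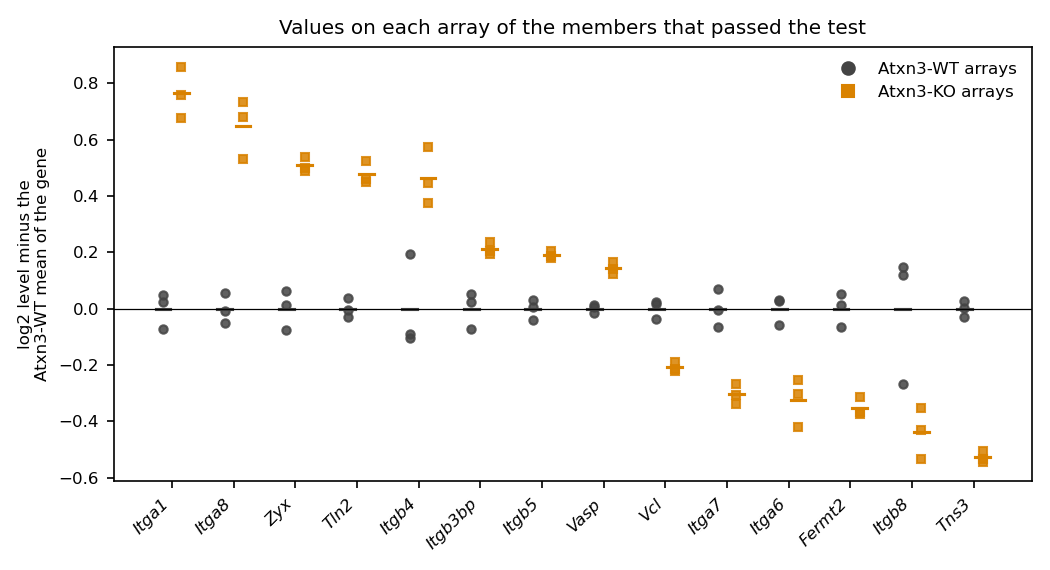
Level on each array of the 14 genes that passed an adjusted p of 0.05, as the log2 level minus the mean of the 3 Atxn3-WT arrays of that gene; points are arrays and dashes are group means. The 3 Atxn3-KO points lie on one side of the 3 Atxn3-WT points for every gene, with the narrowest gap at Itgb8, where the lowest Atxn3-WT array reads 4.61 and the highest Atxn3-KO array 4.53. The genes were selected by a test on these same values, so the separation is no further evidence.

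At the cytoplasmic face, a talin was higher and a kindlin was lower. Tln1, the talin that all cells use to activate integrins, read 11.39, 11.28 and 11.31 in Atxn3-WT and 11.41, 11.33 and 11.32 in Atxn3-KO MEFs. It differed by 0.02 (95% confidence interval -0.10 to 0.14, limma adjusted p = 0.809), with overlapping groups, although 1 dimmer probe set passed at 0.23 (limma adjusted p = 0.0220). Tln2, its paralog, best known in muscle and brain, read 8.72, 8.67 and 8.65 against 9.13, 9.14 and 9.21. It was 1.39-fold higher without overlap (0.48 ± 0.045, 95% confidence interval 0.37 to 0.58, limma adjusted p = 0.000315), while its dimmer probe sets differed by -0.02 and 0.16 and did not pass. Fermt2 (kindlin-2), the kindlin of fibroblasts and a second activator of integrin tails, whose CArG box is printed above, read 12.10, 12.18 and 12.22 against 11.79, 11.80 and 11.85. It was 1.28-fold lower without overlap (-0.35 ± 0.049, limma adjusted p = 0.00187), and a second probe set passed in the same direction (-0.42, limma adjusted p = 0.000476).

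The links to actin also moved in both directions. Tns3 (tensin 3), which binds integrin tails and actin in long-lived fibrillar adhesions, read 11.63, 11.60 and 11.57 in Atxn3-WT and 11.09, 11.06 and 11.07 in Atxn3-KO MEFs. It was 1.44-fold lower without overlap (-0.53 ± 0.042, 95% confidence interval -0.63 to -0.43, limma adjusted p = 0.000143), and its dimmer probe set was lower too (-0.19, limma adjusted p = 0.0395). Its relative Tns1 read 9.41, 9.32 and 9.34 against 9.71, 9.48 and 9.53, a difference of 0.22 that missed the threshold (limma adjusted p = 0.0557) and that 1 of its 3 probe sets passed (0.25, limma adjusted p = 0.0266). Vcl (vinculin), which reinforces the bond between talin and actin under load, read 12.41, 12.41 and 12.35 against 12.17, 12.17 and 12.20. It was 1.16-fold lower without overlap (-0.21 ± 0.042, 95% confidence interval -0.31 to -0.11, limma adjusted p = 0.00971). On a dimmer probe set Vcl read 7.60, 7.58 and 7.67 against 7.24, 7.09 and 7.01 (-0.50 ± 0.065, limma adjusted p = 0.00139), so the probe sets shared the direction and not the size. The alpha-actinin genes Actn1 (-0.06) and Actn4 (-0.01), which crosslink actin filaments, did not pass.

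The complex of Ilk, Pinch and parvin and the adaptors showed no member that passed on its brightest probe set. Ilk, the pseudokinase at the centre of the complex, read 11.94, 11.95 and 11.99 in Atxn3-WT and 11.96, 11.93 and 11.998 in Atxn3-KO MEFs. Its difference was 0.00062 (95% confidence interval -0.10 to 0.10, limma adjusted p = 0.994). Lims1 (Pinch-1) differed by -0.13 (limma adjusted p = 0.111). Parva (alpha-parvin), the actin-binding arm of the complex, gave opposite readings: its brightest probe set read 10.68, 10.66 and 10.65 against 10.47, 10.44 and 10.59 (-0.16, limma adjusted p = 0.0569), while another read 10.26, 10.13 and 10.14 against 10.48, 10.54 and 10.61 (0.37 ± 0.057, limma adjusted p = 0.00302). The direction of Parva therefore depends on the probe set. Pxn (paxillin), a scaffold of early adhesions, read 11.94, 11.91 and 11.93 against 11.89, 11.89 and 11.84 (-0.05, 95% confidence interval -0.15 to 0.04, limma adjusted p = 0.417), with 1 dimmer probe set passing at -0.20 (limma adjusted p = 0.0114). Bcar1 (p130Cas), a stretch-sensitive adaptor, differed by -0.04 (limma adjusted p = 0.750).

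The RNA of both members grouped here as zyxin and Vasp was higher, in a group of only 2 genes, against 17.1% of all genes higher. The Vasp relatives Enah and Evl are on the list of other adhesion genes below and were picked after their values were seen. Enah was lower (-0.18, limma adjusted p = 0.0224) and Evl was higher (0.17, limma adjusted p = 0.0356). Zyx (zyxin), a LIM protein that moves to stress fibres under tension and carries Vasp there, read 11.52, 11.38 and 11.47 in Atxn3-WT and 11.95, 11.96 and 11.998 in Atxn3-KO MEFs. It was 1.42-fold higher without overlap (0.51 ± 0.051, 95% confidence interval 0.39 to 0.63, limma adjusted p = 0.000410), and its second probe set was higher as well (0.35, limma adjusted p = 0.00196). Of the 6 higher genes with a sequence, Zyx was the one with TGANTCA, in the bases printed above. Vasp, which speeds the growth of actin filaments, read 10.76, 10.76 and 10.73 against 10.89, 10.87 and 10.92. It was 1.10-fold higher without overlap (0.14 ± 0.041, limma adjusted p = 0.0386), but leaving out any 1 of the 6 arrays lost the call (limma adjusted p from 0.0796 to 0.114).

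Itgb3bp and Itgbl1, which are no subunits, differed by 0.21 (limma adjusted p = 0.0168) and 0.03 (limma adjusted p = 0.892). The 4 dimmer probe sets of Itgb3bp lay between -0.08 and 0.09 and did not pass, and the call was lost without Atxn3-WT replicate 3 (limma adjusted p = 0.0553) or Atxn3-KO replicate 1 (limma adjusted p = 0.0557). With the mean of its probe sets the difference of Itgb3bp was 0.036 (limma adjusted p = 0.507). Without both genes, 7 of 40 members were higher and 6 were lower.

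The members had 99 probe sets, of which 16 were higher and 13 lower (29.3%, against 26.0% of all 45037 probe sets). Of the 28 members with more than 1 probe set, 18 had at least 1 that passed, and for 8 of these only a dimmer one did, namely Tln1, Pxn, Parva, Tns1, Itga3, Itga4, Itga9 and Itgb1. No member had probe sets that passed in both directions. Of the higher genes, Itga1, Itga8, Tln2 and Itgb3bp passed on the brightest probe set alone, while Zyx and Itgb5 passed on every probe set they have, as did the lower genes Tns3 and Vcl. Probe sets of 1 gene can read different transcript ends, and which transcripts these are was not analysed here.

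**Figure D3:**
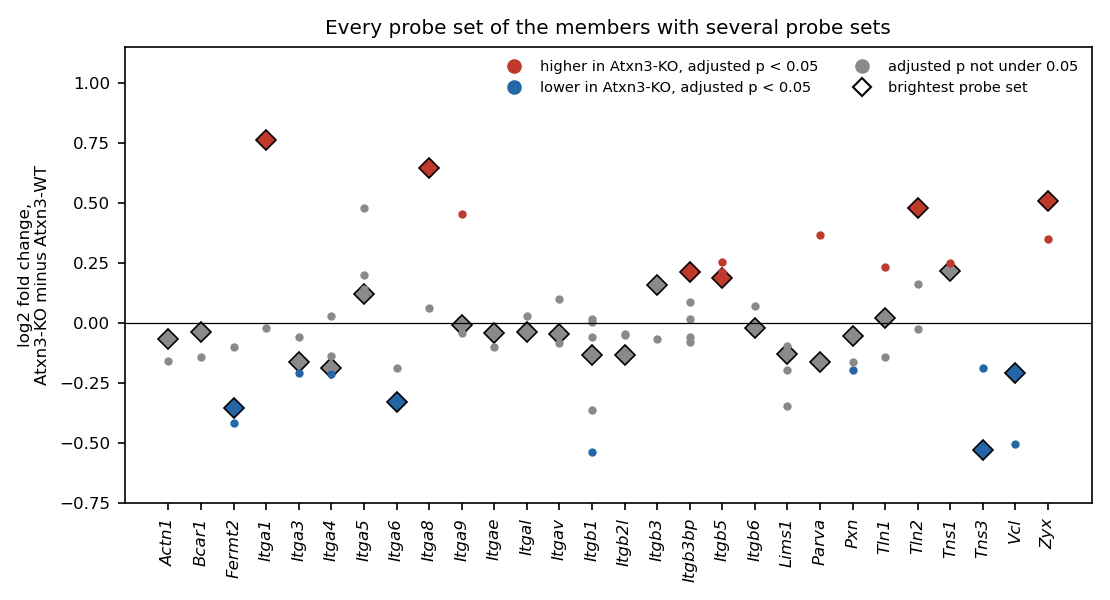
Difference between genotypes (Atxn3-KO minus Atxn3-WT, log2, vertical axis) of every probe set of the 28 members with more than 1; diamonds are the brightest probe set of a gene, dots the others, and colours mark an adjusted p under 0.05. All probe sets of Itgb5, Zyx, Tns3 and Vcl moved 1 way, whereas the red dot of Parva at 0.37 stands opposite its brightest probe set at -0.16.

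Other genes of adhesion sites, listed by role, gave 13 higher and 6 lower of 41 measured (46.3%, against 31.8% of all genes), with a median difference of 0.05. The largest was Parvb (beta-parvin), a relative of Parva that also binds Ilk. It read 7.10, 6.86 and 7.02 in Atxn3-WT and 9.35, 9.44 and 9.34 in Atxn3-KO MEFs, 5.22-fold higher without overlap (2.38 ± 0.069, limma adjusted p = 1.55e-06), although its dimmer probe set differed by 0.25 (limma adjusted p = 0.0645). Parvg, the parvin of blood cells, differed by 0.04, and Lims2 (Pinch-2) was lower (-0.46, limma adjusted p = 0.00097). Actn3, the alpha-actinin of fast muscle fibres, read 5.89, 5.90 and 5.72 against 6.95, 6.73 and 6.83 and was higher by 1.00 ± 0.076 (limma adjusted p = 0.000121), unlike its relatives Actn1 and Actn4, whose differences did not pass.

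A set of 7 LIM proteins on that list (Lpp, Trip6, Tgfb1i1, Pdlim5, Pdlim7, Csrp1 and Lmo7) gave 5 higher and 0 lower in limma (5 higher and 0 lower at an unadjusted p under 0.05), or 71.4% against 31.8% of all genes, with a median of 0.36. The set leaves out other LIM proteins that were counted with their complexes, namely Zyx, which was higher, Lims2, which was lower, and Lims1 and Pxn, which did not pass. Lmo7, a LIM protein of cell junctions, was higher by 0.45 (limma adjusted p = 0.00105). Lpp, a close relative of zyxin, was higher by 0.37 (limma adjusted p = 0.00326) and passed on 6 of its 8 probe sets, whereas Trip6, another relative, differed by -0.09 (limma adjusted p = 0.187). Tgfb1i1 (Hic-5), the TGF-beta inducible relative of paxillin, was higher by 0.38 (limma adjusted p = 0.00107). Lpp, Trip6 and Tgfb1i1 were picked after their values were seen.

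Of the signalling genes, 2 were higher and 3 lower of 13 (38.5%, near the 31.8% of all genes). Ptk2b (Pyk2), the relative of focal adhesion kinase, was higher by 0.43 (limma adjusted p = 0.00505), though its dimmer probe set differed by -0.0025. Arhgef6 (alpha-Pix, -0.68 ± 0.083, limma adjusted p = 0.00101) and Arhgef7 (beta-Pix, -0.27, limma adjusted p = 0.00885), exchange factors that activate Rac and Cdc42 at adhesions, were both lower. Among the actin-linking genes Sorbs3 (vinexin), a partner of vinculin, was lower (-0.64 ± 0.058, limma adjusted p = 0.000270), as vinculin was. Tns2, picked after its value was seen, was higher by 0.34 (limma adjusted p = 0.00131), opposite to Tns3.

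The ligands outside the cell gave 7 higher and 12 lower of 27 measured (70.4%, against 31.8% of all genes), with a median of -0.11. The collagens gave 4 lower of 5 (80%, against 14.7% of all genes lower), and the chains of the collagen IV network, Col4a1 and Col4a2, were both lower (-1.41 each, limma adjusted p = 1.70e-06 and 9.75e-06), while Itga1, a receptor subunit for that collagen, was higher. The laminin chains gave 5 lower and 1 higher of 9 (66.7%, against 31.8%) with a median of -0.26, beside the lower laminin-binding subunits Itga6 and Itga7. Lama2, the main laminin alpha chain of muscle, was lower (-1.04 ± 0.10, limma adjusted p = 0.000398).

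The fibronectin and RGD group gave 5 higher and 1 lower of 8 (75%, against 31.8% of all genes), with a median of 0.22. Npnt (nephronectin), the ligand of alpha 8 beta 1, read 9.18, 9.27 and 9.21 in Atxn3-WT and 9.84, 9.86 and 9.87 in Atxn3-KO MEFs. It was higher by 0.63 ± 0.044 (limma adjusted p = 7.82e-05) and passed on 4 of 5 probe sets, so ligand and receptor subunit Itga8 were both higher. Ccn1 and Thbs1, matricellular proteins that bind several integrins, were higher by 0.48 (limma adjusted p = 0.00081) and 0.46 (limma adjusted p = 0.000282). Of 4 Ccn1 probe sets 2 passed, and the other 2 lay at -0.34 and -0.37 without passing. Fn1 (fibronectin), picked after its value was seen, differed by 0.06 (limma adjusted p = 0.392). At the cell surface the leukocyte integrin ligand Icam1 was lower (-1.06 ± 0.14, limma adjusted p = 0.00150) and the alpha 4 ligand Vcam1 was higher by 0.31 (limma adjusted p = 0.00148).

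**Figure D4:**
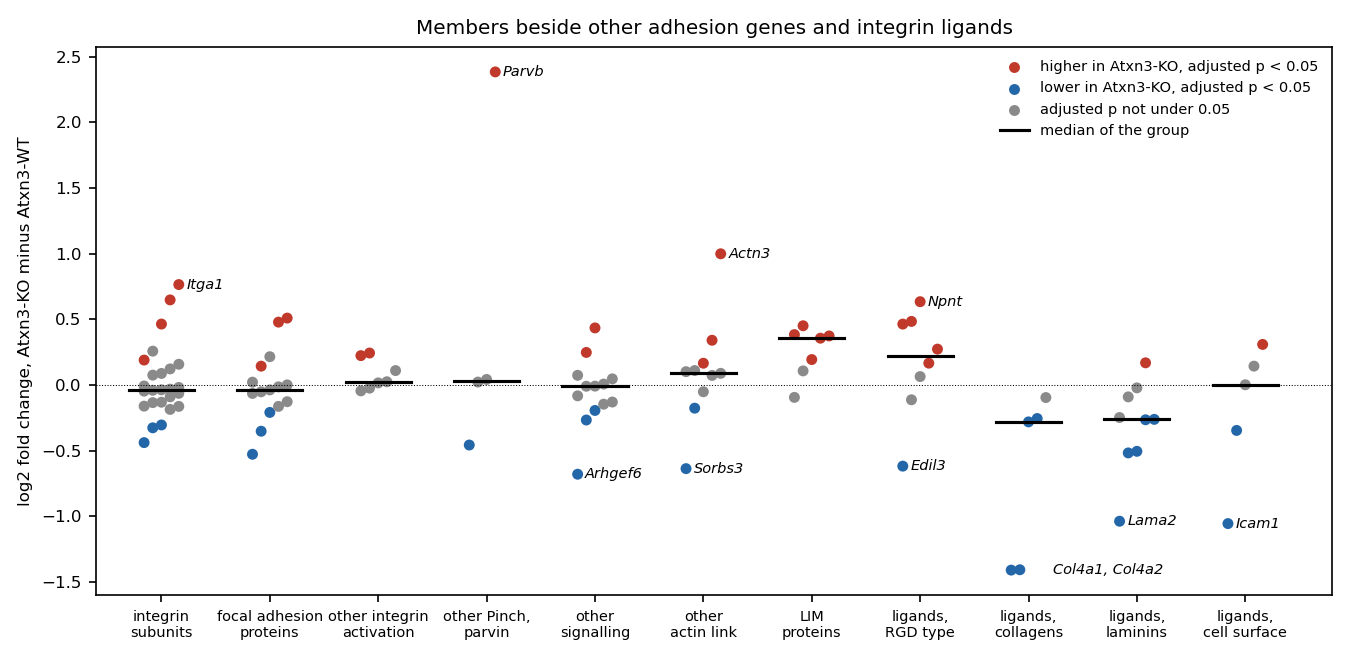
Difference between genotypes (Atxn3-KO minus Atxn3-WT, log2, vertical axis) of the integrin subunits and focal adhesion proteins beside the other adhesion genes and the integrin ligands, by role; points are genes, bars are group medians and colours mark an adjusted p under 0.05. The members lie between -0.53 and 0.76, while Parvb reaches 2.38 and Col4a1 and Col4a2 lie at -1.41.

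Against a least change of 1.2-fold (limma's treat), 4 members were higher (Itga1, Itga8, Tln2 and Zyx) and 1 was lower (Tns3). The share of all genes past treat was not counted, so these counts have no background to be set against. Of the 14 calls, 10 held in every fit other than treat that kept the gene, with any array left out, with other scaling and with other probe set rules: Itga1, Itga8, Itgb4, Tln2, Zyx, Fermt2, Itga6, Itga7, Tns3 and Vcl. Itga8 and Itgb4 had 15 such fits instead of 16, since a filter at the median level left them out. Not every alternative could change a call. Leaving out probe sets marked as shared between sequences could not change these 10, since none was read from such a probe set. The mean of a gene's probe sets could not move the differences of Itga7 and Itgb4, which have 1 probe set each. The sizes of 4 of the 10 calls moved by over 1.5 times with the mean of a gene's probe sets, to 0.37 for Itga1, 0.36 for Itga8, 0.21 for Tln2 and -0.36 for Vcl.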

How the data were processed

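RNA of Atxn3-WT and Atxn3-KO MEFs (3 arrays each, grouped by the labels) was hybridised to Affymetrix mouse genome arrays. The authors deposited log2 expression values made with RMA (background correction, quantile normalization, probe summary); no version of it is given in the sources used. RMA puts all arrays on 1 distribution, so only changes relative to the other genes can be read. The number of arrays limits the precision.

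Of 45101 probe sets, 64 controls were left out. The remaining 45037 were fitted with limma 3.58.1 (lmFit and eBayes, R 4.3.3) with equal weights, since the weights of the linear model in the methods are not named, and all resulting p-values were corrected together by the Benjamini-Hochberg method. Probe sets were named from GEO's platform annotation: 34945 name 1 gene, 932 several and 9160 none, and all 42 members matched RefSeq. The fit was tested on simulated data. The adjusted p threshold was 0.05.

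The members and lists were chosen with earlier results of these data known. Array values were to be given for members that passed with a change of at least 0.5 (log2) and for Itgb1, Itgav, Itga5, Vcl, Tln1, Pxn, Ptk2 and Ilk, and up to 4 called genes in each direction were to be named from each list. Array values of the other called members and a few close misses were added after their values were seen. Arrays of 1 genotype correlated at 0.9985 to 0.9989, and no 2 held more than 0.386% equal values.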

Additional observations from a re-analysis of the deposited data

How the results depend on the processing

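The count of higher members (8) stayed between 6 and 10 under every alternative except treat, and the count of lower members (6) between 5 and 8 except where named here. Lower members numbered 11 with an intensity trend and 11 with the mean of a gene's probe sets. Against a 1.2-fold change (treat), 4 members were higher and 1 lower, and 4 adhesion list genes and 10 ligand genes passed instead of 19 and 19. No share of all genes past treat was counted to set beside them, and none is given here for the other alternatives. A change in the counts under an alternative can therefore not be read as particular to the members or the lists. Itga9 turned to 0.13 (limma adjusted p = 0.0276) with the mean of probe sets, and Parva turned to 0.37 (limma adjusted p = 0.00302) without probe sets marked as shared between sequences, since a different probe set was then read. With 1 array left out, 6 to 8 members were higher and 5 to 7 lower, 0 passed the 2-fold thresholds in limma, and 15 to 17 adhesion list genes and 17 to 18 ligand genes passed. Without Itgb3bp and Itgbl1, an alternative chosen after seeing the data, 7 were higher and 6 lower. Over single members, 607 comparisons with the main fit left direction and call as they were, 29 gained a call, 16 lost one and 2 turned. Some of the 607 could not differ. Leaving out shared probe sets reused the main fit, so it changed nothing for a member not read from such a probe set.

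With the replicate number as a block (replicate block), 8 members were higher and 5 lower, and 15 adhesion list genes and 17 ligand genes passed. Itgb8 (limma adjusted p = 0.0546) and Vasp (limma adjusted p = 0.0969) were lost and Tns1 gained (limma adjusted p = 0.0435). The numbers do not pair the arrays: deviations of same-numbered arrays correlated at 0.0212, -0.0227 and -0.0361, and 2 of 6 arrays correlated best with their own number.

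Signal limits the reading of Itgam, Itgb6 and Itgbl1, whose means were under each array's 25th percentile in both genotypes, of Itgb2, whose Atxn3-WT mean was under it, and of Itga8, whose Atxn3-WT mean lay at it. The same holds for Itgb8, whose Atxn3-KO mean lay near it.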
